A study of Mus musculus with 12 samples.

Results

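The 37 meiotic chromosome and recombination genes described here encode the proteins that pair, cut, recombine and separate chromosomes in meiotic prophase. They were taken from a list of gene symbols by function, through every array probe whose accession belongs to such a symbol. The rule uses no measured value, but the list was drawn up with earlier results of these data known. Of the 37 genes, 35 had at least 1 matched probe (48 probes in all), and 34 were tested among the 25019 genes tested of 32496 on the array. Rad21l and Rnf212 had no probe matched by accession. Mei4, a gene needed to form meiotic DNA breaks, had a pair of probes that were not well above background on any of the 12 arrays (levels from -9.86 to -7.63), so it was not tested. Of the 35 genes, 23 had 1 probe and 12 had several, and a gene was represented by its probe of highest mean log2 signal over the 12 arrays.

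Each of 6 C57BL/6J males gave 2 testis fractions, labelled germ cells (a pellet, in the titles) and Sertoli cells, and every fraction was hybridised to its own array. Trp73 encodes p73, a relative of p53, and its TA isoforms are those able to activate transcription. Knockout mice 120, 86 and 72 were labelled TAp73 knockout, and control mice 99, 73 and 74 carry a wild-type source name. The titles call control mice 73 and 74 het and mouse 99 WT, so the control group may hold 2 genotypes. Ages were 4 months for mouse 120, 5 months for mouse 99 and 8 months for the rest. The 12 arrays lay on 3 slides, each with both fractions of a knockout and a control animal: 120 with 99 on slide 1, 86 with 73 on slide 2, and 72 with 74 on slide 3. Nothing in the sources used here gives the allele's structure, and no agent or treatment is named. Values below are listed in the order of mice 120, 86 and 72 for knockouts and 99, 73 and 74 for controls. A level is the log2 signal minus the 75th percentile of its array, a difference is in log2 units, SE is the standard error of the fit, SD the standard deviation, and a gene passed the test at a limma Benjamini-Hochberg adjusted p under 0.05.

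In meiotic prophase the chromosomes of a germ cell fold into loops on a proteinaceous axis, and SPO11 cuts their DNA. The breaks are repaired with the homologous chromosome as template, some as crossovers, while the synaptonemal complex zips both homologs together and telomeres move them along the nuclear envelope. In the testis this happens in spermatocytes, which lie between spermatogonia and spermatids, and most of these genes are silent in somatic cells such as Sertoli cells, the nurse cells of the tubule.

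Some arrays stood apart from their groups. On the germ arrays of knockout mouse 86 and control mouse 99, deviations from the group mean correlated with r 0.81 across the 25019 genes, which are not independent replicates. Both arrays lay below the other 4 germ arrays for 25.2% of 30520 kept probes and above them for 18.3%. Among the 45 kept probes of the meiotic genes the shares were 15.6% (7 probes) and 26.7% (12 probes). The germ arrays of knockout mouse 72 and control mouse 74 also deviated together (r 0.77). So did those of mouse 120 with 73 (r 0.48) and with 74 (r 0.35), which lay on different slides. Deviations are taken from the group mean, so these correlations depend on each other. Slide 3, with mice 72 and 74, was scanned on a later day than slides 1 and 2. The control Sertoli array of mouse 74 had the lowest 75th percentile, 1355 against 2863 to 5350 on the other arrays, and the highest floor of measurable signal, -5.69 against -7.60 to -6.66. Well above background were 73.3 to 78.9% of probes on the germ arrays and 64.1 to 68.3% on the Sertoli arrays. Trp73 itself was not lower in the arrays labelled knockout, with a difference of 1.0 ± 0.50 (SE) in germ and 0.42 ± 0.50 in Sertoli fractions (adjusted p 0.753 and 1.0), and where its probe lies relative to the deletion was not given. The fractions were checked against cell type markers: all 9 spermatocyte markers outside the list and all 9 round and 9 elongating spermatid markers were higher in the germ fraction of controls. Probes well above background in the germ groups alone also entered the test, so these germ marker counts may be fixed in part. Of 11 tested Sertoli cell markers, however, 5 were higher and 4 lower in that germ fraction, against 36.6% and 39.8% of all genes. Fshr, the receptor of follicle-stimulating hormone, was not well above background on any Sertoli array. All 5 peritubular myoid markers, smooth muscle genes such as Acta2, were lower in the germ fraction (median -5.79). The log2 of the summed Sertoli markers was 6.07 to 6.34 on control germ and 5.72 to 6.10 on control Sertoli arrays. In knockouts it was 6.51 to 6.98 and 5.99 to 6.20. There 6 of the 11 markers were called higher in germ and 2 lower, against 37.1% and 37.9% of all genes. The names Sertoli fraction and germ cells therefore stand for the labels.

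All 34 tested meiotic genes were higher in the germ than in the Sertoli fraction, in control and in knockout mice alike. Of all 25019 genes 36.6% were called higher in germ cells in controls and 37.1% in knockouts. The count of 34 is in part fixed by the filter: 16 of the 34 genes entered the test through the germ groups alone, where they are high, and had to differ. The other 18 were also well above background on all 3 arrays of a Sertoli group, and all 18 were higher in germ cells in both genotypes. Their differences ran from 0.84 (Trip13) to 10.66 (Syce1) in controls, with a median of 4.98, and from 0.93 (Trip13) to 11.26 (Syce1) in knockouts, with a median of 4.42. The median over all genes was -0.21 in controls and -0.09 in knockouts. On the germ arrays all 34 genes were well above background on each of the 6. On the Sertoli arrays 15 genes were well above background on all 6, 9 on some and 10 on none. For the 9 the difference rests in part on arrays at the background. In controls Sycp2, Mei1, Meiob and Tex11 were well above background on 1 of 3 Sertoli arrays. For the 10 (11 in controls, with Hormad2) the difference is open upward, and the fold is given as a lower bound that sets the germ mean against the floor of the Sertoli arrays. The median over the 34 genes was 5.84 in both genotypes, with these genes at their bounds too. With normexp background correction the controls' calls of Rec114, Prdm9, Spata22 and Msh4 were lost (limma adjusted p 0.61, 0.309, 0.357 and 0.184). The lower bounds given here and below hold for the processed signal and not under every alternative. Over the alternatives the control difference fell to 6.18 for Sycp1 (log2 bound 8.83) and to 0.46 for Rec114. In such bulk fractions, fewer spermatocytes and less RNA per spermatocyte cannot be told apart.

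**Figure D1:**
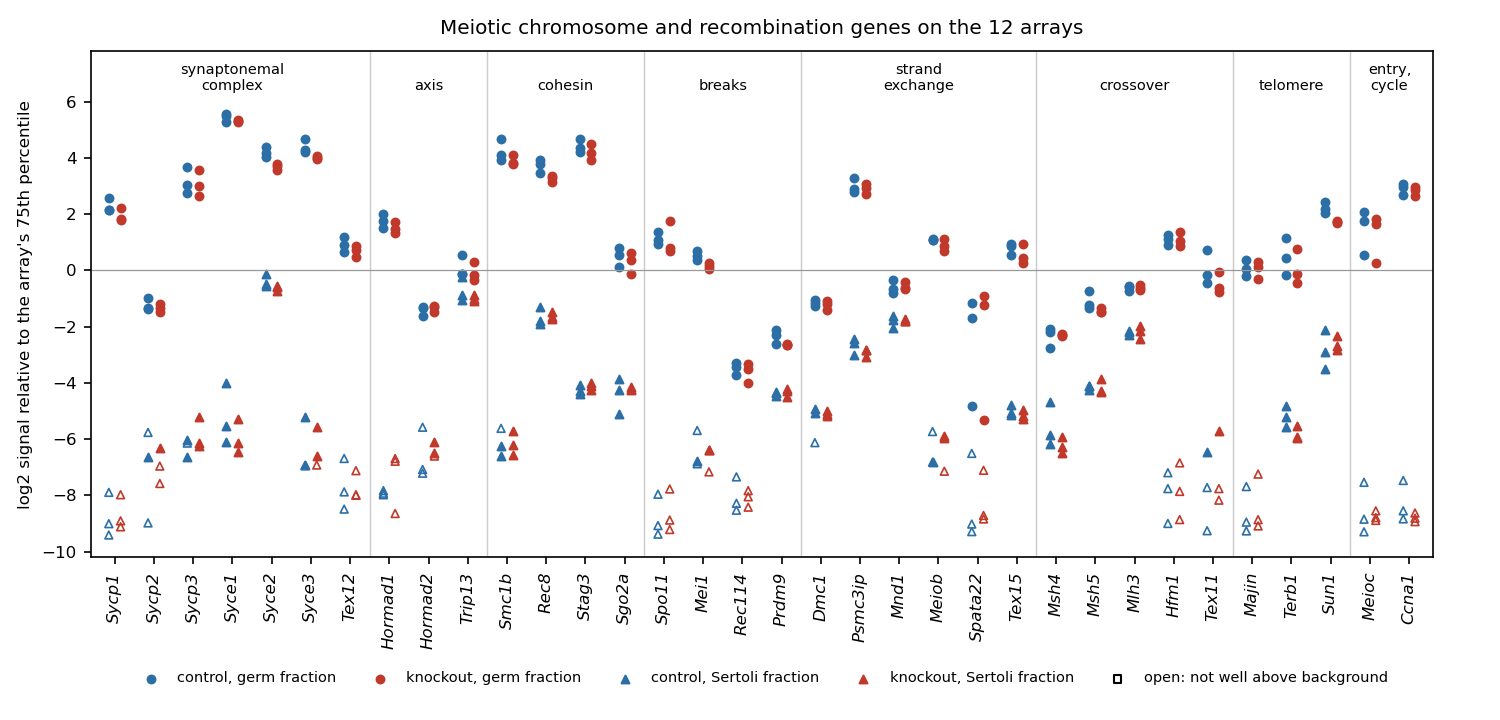
Levels of the 34 tested meiotic genes (x axis, grouped by role) on the 12 arrays, as log2 signal relative to the array's 75th percentile (y axis). Circles are germ and triangles Sertoli arrays, blue control and red knockout mice, and open symbols were not well above background; each gene's circles lie above its triangles within a genotype, closest in Trip13 (0.84 on average in controls), and the gap to open triangles is a lower limit set by the background.

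The synaptonemal complex genes were all higher in germ cells, 7 of 7 in each genotype, with a median difference of 8.83 in controls and 8.80 in knockouts with Sycp1 and Tex12 at their bounds. Sycp1 encodes the transverse filament that spans the complex. Its germ levels were 1.84, 2.21 and 1.79 in knockouts and 2.57, 2.17 and 2.16 in controls, while no Sertoli array was well above background (-9.41 to -7.89), so germ levels were at least 455-fold higher in controls and at least 446-fold in knockouts. Sycp2 and Sycp3 form the lateral elements, the axes of each homolog. Sycp3 lay at 3.00, 3.58 and 2.65 in knockout and 3.67, 3.05 and 2.75 in control germ cells and at -6.64 to -5.22 on the Sertoli arrays, a difference of 9.43 ± 0.36 (SE) in controls. For Sycp2 the difference was 5.90 ± 0.65, with Sertoli levels that spread from -8.98 to -5.76. The germ levels of each of these 3 genes overlapped between genotypes.

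Syce1, Syce2, Syce3 and Tex12 encode the central element, which joins the filaments in the middle of the complex. Syce1 had germ levels of 5.36, 5.30 and 5.27 in knockouts and 5.55, 5.29 and 5.51 in controls, and differed from the Sertoli fraction by 10.66 ± 0.46 in controls. The control difference of Syce3 was 10.76 ± 0.46, and that of Tex12 was at least 175-fold. Syce2, like Syce1, was well above background on all 6 Sertoli arrays, at -0.56, -0.58 and -0.74 in knockouts and -0.55, -0.12 and -0.49 in controls. Its germ levels of 3.71, 3.80 and 3.58 in knockouts and 4.41, 4.18 and 4.05 in controls still lay 4.32 ± 0.18 and 4.60 ± 0.18 higher.

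Among the axis proteins with a HORMA domain, which mark chromosomes that have not yet synapsed, Hormad1 was at least 312-fold and Hormad2 at least 33.3-fold higher in control germ cells. Trip13, the ATPase that strips them from synapsed axes and also acts in the mitotic checkpoint, had the smallest difference of the 34 genes. Its germ levels were -0.34, 0.30 and -0.15 in knockouts and 0.56, -0.12 and -0.11 in controls, against -1.02, -0.87 and -1.09 and -0.88, -0.25 and -1.06 on the Sertoli arrays. The differences were 0.93 ± 0.27 (adjusted p 0.00908) in knockouts and 0.84 ± 0.27 (adjusted p 0.0155) in controls. In controls the Trip13 value varied between mice: within mice it was 1.44 (mouse 99), 0.13 (mouse 73) and 0.94 (mouse 74). Without mouse 99 it was 0.54 with a limma adjusted p of 0.145. With all control mice kept but only the control arrays fitted, the 0.84 had a limma adjusted p of 0.0522. Without mouse 86 the knockout value of 0.81 did not pass either (adjusted p 0.0592), nor did the 0.92 without mouse 72 (adjusted p 0.0511). Over all alternatives tried, direction did not turn for any of the 34 genes.

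The meiotic cohesins replace general subunits of the ring that holds sister chromatids. Smc1b lay at 3.82, 4.12 and 3.78 in knockout and 4.67, 4.11 and 3.93 in control germ cells and at -6.60 to -5.62 on the Sertoli arrays, a difference of 10.39 ± 0.31 in controls. Stag3 differed by 8.66 ± 0.20 and Rec8, the subunit cleaved at the meiotic divisions, by 5.39 ± 0.20. Both of them and Sgo2a, the shugoshin that shields centromeric REC8 from cleavage (4.90 ± 0.32), were well above background on all 6 Sertoli arrays. Rec8 Sertoli levels were -1.67, -1.73 and -1.49 in knockouts and -1.92, -1.81 and -1.29 in controls.

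Of the genes that place and make breaks, Spo11, the catalytic subunit, was at least 203-fold higher in control germ cells, with germ levels of 0.70, 1.76 and 0.80 in knockouts and 1.38, 1.08 and 0.95 in controls. Mei1, needed for break formation, differed by 6.97 ± 0.32, and Rec114, whose protein works with MEI4, was at least 8.31-fold higher. Prdm9, the histone methyltransferase whose zinc fingers choose the hotspots, differed by 2.04 ± 0.17 in controls and 1.70 ± 0.17 in knockouts. Its Sertoli levels of -4.24, -4.27 and -4.51 and -4.48, -4.31 and -4.36 were all well above background on this probe. The less bright Prdm9 probe was above background on the 3 germ arrays of each genotype and on no Sertoli array. It gave a control difference of 1.75.

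Strand exchange genes were higher in 6 of 6 cases. Dmc1 encodes the meiotic recombinase that coats the cut ends, and Psmc3ip (HOP2) and Mnd1 form the complex that helps it find the homolog. Dmc1 gave a control difference of 4.22 ± 0.28, and Psmc3ip gave 5.66 ± 0.21. Mnd1 gave only 1.21 ± 0.18 in both genotypes, with Sertoli levels between -2.05 and -1.63 and a further probe at 1.41. Meiob and Spata22 bind single-stranded DNA as partners, and Tex15 acts in the loading of recombinases and in transposon silencing. Meiob differed by 7.56 ± 0.36, Tex15 by 5.79 ± 0.21, and Spata22 was at least 15.7-fold higher. This Spata22 bound holds for the group mean and not for each mouse, since control germ levels spread from -4.82 to -1.15.

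Of the crossover genes, Msh4 and Msh5 form the clamp that stabilises crossover intermediates, Mlh3 is an endonuclease subunit that resolves them, Hfm1 is a helicase and Tex11 a scaffold encoded on the X chromosome. The 5 tested were all higher in germ cells, with Hfm1 at least 196-fold and the others by 1.59 ± 0.16 (Mlh3) to 7.86 ± 0.74 (Tex11) in controls. The Tex11 probe used was well above background on 1 of 3 control Sertoli arrays. Its other probe, above background on none of them, gave 3.55. For Msh4 the probe of highest mean log2 signal gave 3.22 ± 0.35, with Sertoli levels of -6.51 to -4.67 that were all well above background. The other Msh4 probe stayed at background on all 6 Sertoli arrays while its germ levels were 0.0030 to 0.88, so its difference has no upper limit.

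Majin and Terb1, 2 subunits of the complex that ties telomeres to the inner nuclear membrane, and Sun1, which links them through the envelope to the cytoskeleton, were higher by at least 97.5-fold, 5.67 ± 0.38 and 5.07 ± 0.30 in controls. The less bright Sun1 probe, also above background on all Sertoli arrays, gave 1.68, so its probes shared the direction and not the size. Meioc, a partner of YTHDC2 that keeps the meiotic programme running in early prophase, was at least 255-fold higher. Ccna1, the meiotic cyclin A needed to leave prophase, had germ levels of 2.95, 2.85 and 2.65 in knockouts and 2.67, 3.08 and 2.96 in controls. With no Sertoli array above background (-8.94 to -7.47), Ccna1 was at least 692-fold higher in control and at least 816-fold higher in knockout germ cells.

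Many of these proteins have a general relative that works in all dividing cells, and many of these relatives did not share the direction. In controls 3 of the 9 relatives reported here were higher in the germ fraction, 5 were lower and 1 did not pass, against 36.6% of all genes called higher and 39.8% lower. Smc1a, the general counterpart of Smc1b, lay at -1.25, -0.51 and -0.54 in knockout and -0.52, -1.01 and -0.96 in control germ cells and at 2.39 to 2.89 on the Sertoli arrays, a control difference of -3.52 against 10.39 for Smc1b. Rad21 had -1.72 beside 5.39 for Rec8. Stag2 had -3.74 and Stag1 0.97 beside 8.66 for Stag3. Ccna2, the mitotic cyclin A, had -2.23 where Ccna1 was at least 692-fold higher, and Sun2 had -1.61 beside 5.07 for Sun1.

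Other relatives were split. Rpa1, the general single-strand binding protein, was higher in germ cells by 1.15 beside 7.56 for Meiob, and Msh6, a mismatch repair protein, by 0.60 beside 3.05 for Msh5. Sgo1 (-0.38, adjusted p 0.218) beside Sgo2a did not pass. In knockouts the same signs were seen in all 9, of which 2 were higher, 5 lower (37.9% of all genes were) and 2 did not pass, Msh6 (0.41, adjusted p 0.0797) being the additional one. The difference within a pair was not tested, and levels of different probes cannot be set against each other.

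**Figure D2:**
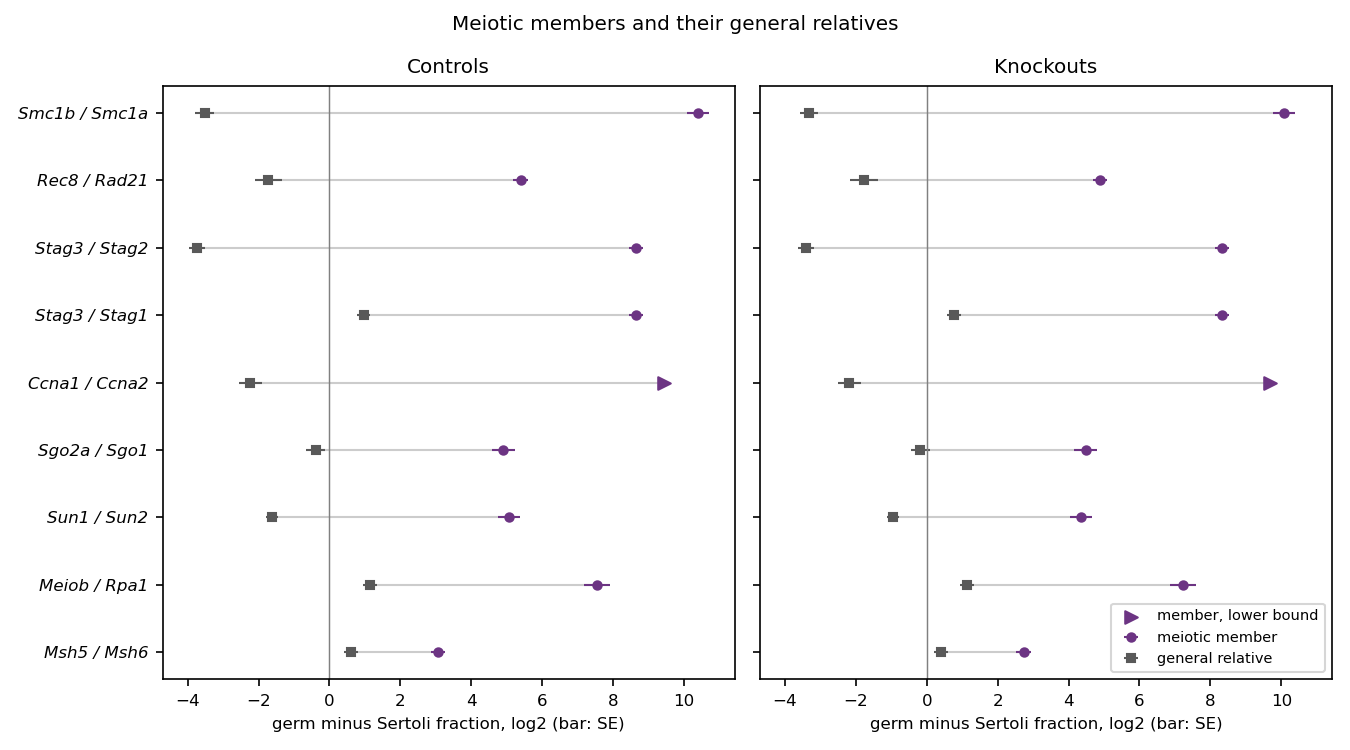
Germ minus Sertoli difference in log2 units (x axis, bars are SE of the fit, 3 mice per group) for 8 meiotic members (purple circles) and their general relatives (grey squares), controls left and knockouts right, 1 pair per row. Ccna1, not above background in the Sertoli fraction, is drawn as an arrow at its lower bound (9.43 in controls); the other members lie between 3.05 (Msh5) and 10.39 (Smc1b) in controls, and the relatives between -3.74 (Stag2) and 1.15 (Rpa1).

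A wider list of 58 other meiotic genes, of which 50 were tested, gave the same direction for most. In controls 45 were higher in germ cells and 2 lower, against 36.6% and 39.8% of all genes. In knockouts 44 were higher and 2 lower, against 37.1% and 37.9% of all genes. Genes that entered the test through the germ groups alone had to differ, so these counts may be fixed in part. In controls Boll, an RNA-binding protein of the meiotic divisions, was at least 322-fold higher, Stra8, the factor that starts meiosis after retinoic acid, at least 245-fold, and Meikin, a kinetochore protein of the first division, at least 178-fold. Lower were Atm, the kinase that limits breaks and signals them in all cells (-1.45 in controls and -1.69 in knockouts), and Sfr1 (-1.26 and -1.20), a recombination cofactor. Swi5, the partner of SFR1, Rnf8 and Cdk2 did not pass in either genotype, at -0.24, 0.01 and 1.04 in controls, and H2ax did not pass in knockouts (0.72, adjusted p 0.059).

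Because the 34 tested genes were high in the same fraction, promoters of all 37 listed genes were read for motifs of factors known to act on meiotic genes. In somatic cells E2F6 and MGA with MAX bring a Polycomb complex to meiotic promoters, and MGA with MAX reads the E-box. In germ cells STRA8 with MEIOSIN switches meiotic genes on, and MYBL1 acts in pachytene. The RefSeq promoter table (GRCm38.p6, 250 bases before to 50 after a start) held 39 promoters of 32 of the 37 genes, and 32851 promoters in all. Spo11, Meiob, Tex15, Tex11 and Majin had no entry. Mei4, Rad21l and Rnf212, which were not tested, had an entry and are counted. Motifs were searched on both strands. The windows below hold only bases before the start and were chosen to show how the matches are arranged, with E2F6 letters (GCGGGAA, or TTCCCGC on the other strand) and E-box letters (CACGTG) in capitals. They lie at chr3:95559567-95559676 (Hormad1, plus strand), chr10:88459425-88459564 (Sycp3, plus), chr8:84872155-84872245 (Syce2, plus), chr9:50561341-50561428 (Tex12, minus), chr15:85131984-85132020 (Smc1b, minus), chr17:15564380-15564416 (Prdm9, minus) and chr3:102936174-102936209 (Sycp1, minus), each written 5′ to 3′ on the gene's strand.
Hormad1: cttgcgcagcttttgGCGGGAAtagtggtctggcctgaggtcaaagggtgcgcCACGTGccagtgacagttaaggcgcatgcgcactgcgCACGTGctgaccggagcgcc
Sycp3: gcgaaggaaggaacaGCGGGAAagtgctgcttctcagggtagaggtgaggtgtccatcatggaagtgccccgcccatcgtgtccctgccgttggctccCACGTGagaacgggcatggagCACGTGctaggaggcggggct
Syce2: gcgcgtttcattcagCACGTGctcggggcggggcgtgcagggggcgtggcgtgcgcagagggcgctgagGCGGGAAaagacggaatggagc
Tex12: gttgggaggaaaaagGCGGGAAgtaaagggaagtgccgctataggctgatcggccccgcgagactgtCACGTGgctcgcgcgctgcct
Smc1b: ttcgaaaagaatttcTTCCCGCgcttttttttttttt
Prdm9: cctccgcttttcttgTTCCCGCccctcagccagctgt
Sycp1: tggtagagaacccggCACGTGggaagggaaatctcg

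In Hormad1 and Sycp3 an E2F6 match lay upstream of a pair of E-boxes, in Tex12 upstream of 1 E-box, and in Syce2 the order was reversed. Smc1b and Prdm9 had the E2F6 letters on the other strand and no E-box, and Sycp1 had an E-box and no E2F6 match. The E2F6 motif was found in 14 of 39 member promoters (35.9%, 13 genes) against 4.6% of all promoters, and the E-box in 9 (23.1%, 8 genes) against 7.15%. Both together were found in 8 promoters (20.5%) of the 7 genes Hormad1, Rec114, Rnf212, Stag3, Syce2, Sycp3 and Tex12, against 0.457% of all promoters. Hormad1 contributes a pair of overlapping promoters, so these counts are not independent. The STRA8 motif CNCCTCAG was found in 8 promoters (20.5%) against 7.94%, namely those of Hfm1, Hormad2, Msh5, Prdm9, Sun1, Syce2, Sycp1 and Tex12, and overlapped the E2F6 match in Syce2 and Prdm9. The MYB motif AACNGTT was found in 1 promoter (2.56%, Sycp1) against 4.45%.

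The member promoters were rich in CpG, with a median of 19 per promoter against 7 over all promoters, and the E2F6 motif itself contains a CpG. Promoters were therefore also split by CpG number, with limits chosen after the values were seen. With 20 or more CpG the E2F6 motif was found in 10 of 18 member promoters (55.6%) and 11.4% of all, with 10 to 19 CpG in 4 of 15 (26.7%) and 5.84%, and with under 10 CpG in 0 of 6 and 1.06%. The germ minus Sertoli difference in controls had a median of 7.16 over the 12 tested genes with an E2F6 match and 5.66 over the 17 without. It was 8.66 over 7 genes with an E-box and 5.53 over 22 without, and 5.14 over 8 genes with a STRA8 match and 5.72 over 21 without. These medians include genes at the background in the Sertoli fraction, and no split was tested. A match describes letters in a window and no binding was measured here.

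**Figure D3:**
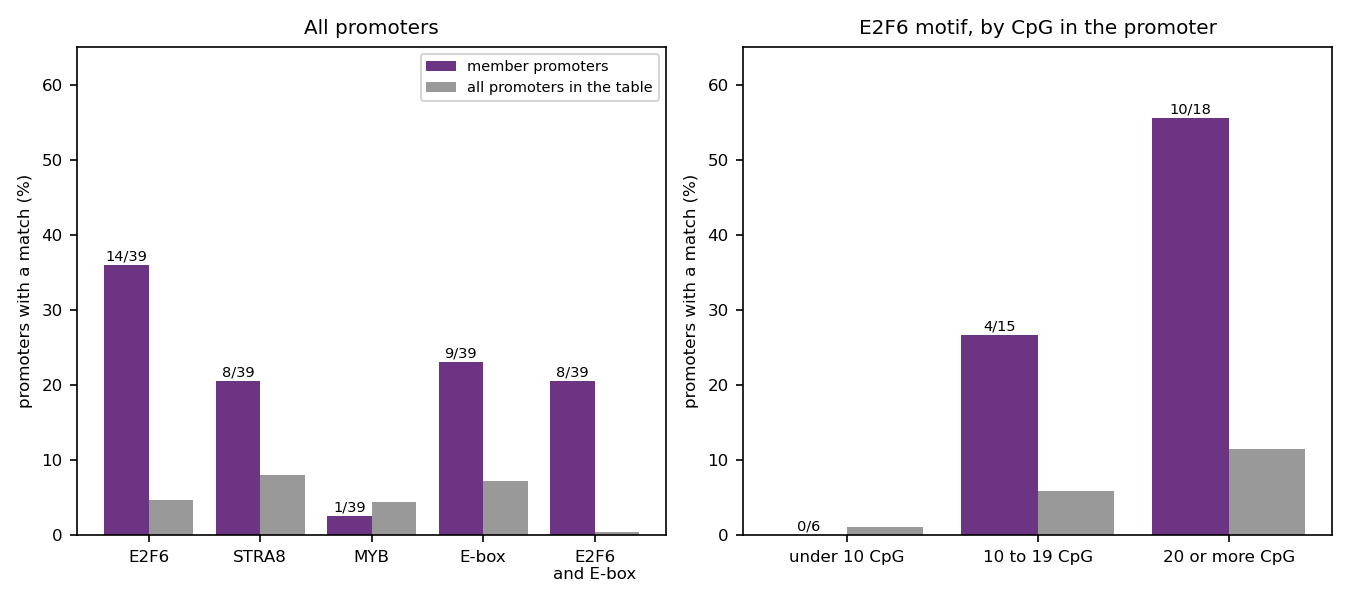
Share of promoters with at least 1 match (y axis, percent) among promoters of the meiotic genes (purple, with counts) and all promoters in the RefSeq table (grey). The left panel gives each motif and the pair of E2F6 and E-box, 35.9% against 4.6% for E2F6; the right panel gives E2F6 by number of CpG, 55.6% against 11.4% with 20 or more.

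The comparison of genotypes asks which genes the loss of TAp73 changes in each fraction. In germ cells none of the 34 meiotic genes passed the test between knockout and control mice, against 0.22% of all genes (55 of 25019). Of the 34, 28 were lower and 6 higher in knockouts, where 45.5% of all genes were higher. The median difference was -0.20, against -0.04 over all genes. The values ran from -0.52 (Tex11 and Syce2) to 0.08 (Spata22). At an unadjusted p under 0.05, 2 genes were lower (Syce2 and Rec8), against 1.23% of all genes. In 5 genes (Syce2, Syce3, Rec8, Mei1 and Sun1) the 3 knockout arrays lay below the 3 control arrays, against 9.12% of all genes, and in 0 genes above, against 6.55%.

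**Figure D4:**
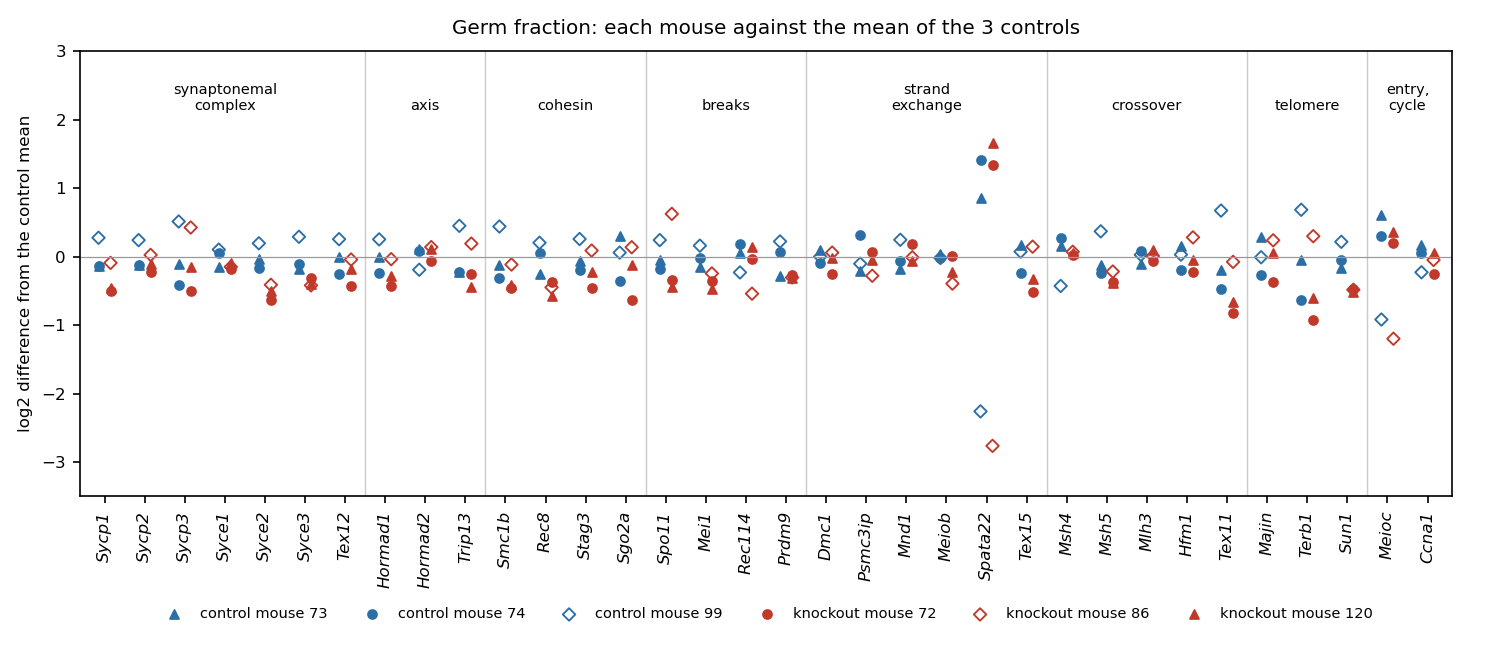
Germ fraction levels of the 34 genes in each mouse minus the mean of the 3 controls, in log2 units (y axis), with control mice in blue, knockout mice in red and mice 86 and 99 as open diamonds. Most points lie within 1 unit of 0 in both groups, Syce2 and Rec8 are lower in all 3 knockouts, and Spata22 and Meioc are low in mice 86 and 99 alone.

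Syce2 had the smallest p. Its germ levels of 3.71, 3.80 and 3.58 in knockouts lay below the 4.41, 4.18 and 4.05 of controls, a difference of -0.52 ± 0.18 (SE) with an adjusted p of 0.40 in limma. Rec8 lay at 3.15, 3.27 and 3.35 in knockouts and 3.92, 3.46 and 3.78 in controls, a difference of -0.47 ± 0.20 (adjusted p 0.653). For both genes every knockout array was below every control array, in a margin no wider than the spread among the controls. Within slides 1, 2 and 3 the values were -0.70, -0.38 and -0.48 for Syce2 and -0.78, -0.19 and -0.44 for Rec8. Without mice 86 and 99 they were -0.47 and -0.38. Under all alternatives tried the adjusted p ran from 0.243 to 1.0 for Syce2 and from 0.254 to 1.0 for Rec8.

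The other genes without overlap had small differences as well. Syce3 lay at 4.00, 3.98 and 4.08 in knockouts and 4.68, 4.22 and 4.28 in controls (-0.38 ± 0.46), Mei1 at 0.05, 0.27 and 0.17 and 0.68, 0.37 and 0.51 (-0.36 ± 0.32), and Sun1 at 1.70, 1.74 and 1.75 and 2.44, 2.05 and 2.17 (-0.49 ± 0.30). Control mouse 99 was the highest of the 3 controls in each of these genes. The less bright probe of Sun1 gave 0.10, with overlap, so the separation of Sun1 was seen on 1 of its probes. The SE of Syce3 includes its Sertoli arrays, which spread from -6.94 to -5.22 near the background; with only the germ arrays in the fit the adjusted p of Syce3 was 0.644, within a range of 0.449 to 1.0 over the alternatives.

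By role, all 7 synaptonemal complex genes, 4 of 4 cohesin genes, 4 of 4 break genes and 3 of 3 telomere genes had negative values in knockout germ cells, with medians of -0.22, -0.27, -0.22 and -0.41. None of these lists held a called gene, and their genes share the same 6 mice. Strand exchange genes had a median of -0.08 with 2 of 6 positive, and crossover genes 0.01 with 3 of 5 positive. Some of these signs depend on the probe. Other probes gave -0.36 for Msh4 (0.05 on the probe used), -0.26 and -0.38 for Dmc1, -0.04 for Mnd1 and -0.24 for Tex11. Among telomere genes they gave 0.38 for Majin, 0.10 for Sun1 and -0.37 for Terb1. Mlh3 (0.02 ± 0.16), Mnd1 (0.04 ± 0.18) and Psmc3ip (-0.08 ± 0.21) were among the most precisely measured, with 95% intervals of -0.35 to 0.38, -0.36 to 0.43 and -0.55 to 0.39. Other genes of like precision had lower values. Prdm9 (-0.30) and Stag3 (-0.20) had intervals of -0.68 to 0.08 and -0.63 to 0.24. Those of Syce2 (-0.52) and Rec8 (-0.47) were -0.91 to -0.13 and -0.92 to -0.01. The intervals are not adjusted for the number of genes. For 17 of 34 genes the 95% interval of the difference lay within 1 log2 unit either way, and for the other 17 it reached past 1. A change of 1 log2 unit is therefore not excluded for these 17, which include Sycp1, Spo11, Hormad1 and Tex11.

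The values differed between the mice compared. Mouse 99, at 5 months and titled WT, had the highest of the 6 germ levels in 19 of the 34 genes, and knockout mouse 72 had the lowest in 17. The median difference was -0.42 within slide 1 (mice 120 and 99), -0.03 within slide 2 (86 and 73) and -0.20 within slide 3 (72 and 74). It was -0.14 without mouse 99, -0.18 without mice 86 and 99, -0.11 in the 8-month mice alone and -0.32 with mouse 99 as the only control. Genotype, age and the het titles cannot be told apart at the level of single mice.

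The germ arrays of mice 86 and 99 differed from the other 4 most clearly in Spata22, the partner of MEIOB. Its levels were -0.90, -5.32 and -1.22 in knockouts and -4.82, -1.71 and -1.15 in controls, so that 1 array of each genotype lay far below the rest of its group. The group means of -2.48 ± 2.47 and -2.56 ± 1.98 (SD, n = 3) therefore describe no mouse well, and the 95% interval of the difference ran from -2.79 to 2.95. Without mice 86 and 99 the difference was 0.37. Meioc followed the same split, at 1.82, 0.26 and 1.66 in knockouts and 0.54, 2.08 and 1.77 in controls, and its other probe at -0.78, -1.45 and -0.84 and -0.95, -0.72 and -0.58.

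The split was not the same for all probes of a gene. For Tex15 the less bright probe, too dim to be kept in the test, was low in mice 86 and 99 (-8.69 and -7.93 against -7.01 to -5.84 in the others), while the brighter probe was not (0.93 and 0.86 against 0.28 to 0.95). For Majin the less bright probe lay at -4.85 and -5.61 against -4.44 to -4.15, and the brighter one at 0.31 and 0.07 within the range of the others. The less bright Sun1 probe gave -5.00 and -5.03 against -4.52 to -3.07. Terb1 went the other way on both probes: its brighter probe was highest in mice 86 and 99, at 0.78 and 1.16 against -0.44 to 0.43. These genes were chosen for the plot after their values were seen, and what sets the 2 arrays apart was not tested.

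**Figure D5:**
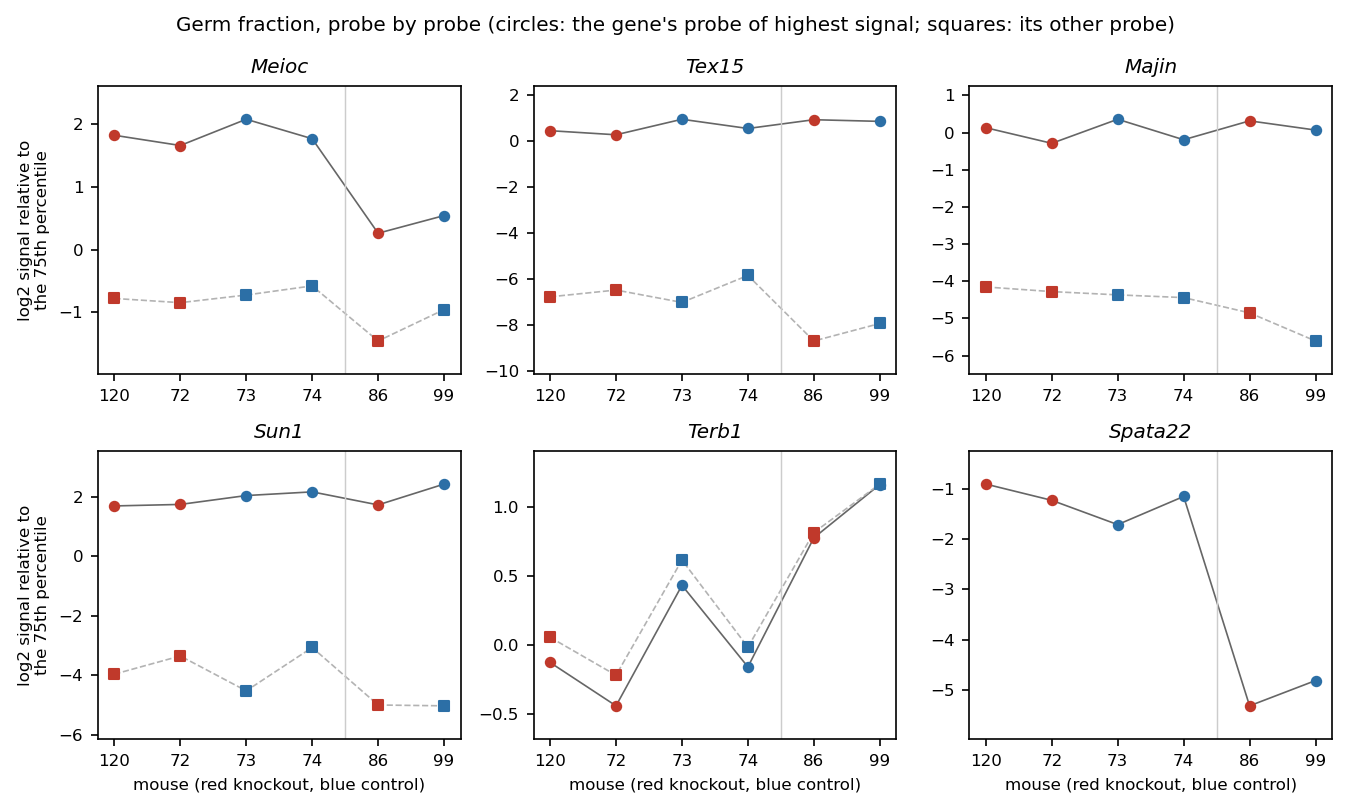
Germ fraction levels (y axis, log2 relative to the array's 75th percentile) of single probes of 6 meiotic genes in each mouse (x axis), knockouts red and controls blue, with mice 86 and 99 right of the grey line. Meioc and Spata22 drop in these mice, Terb1 is highest there on both probes, and Tex15, Majin and Sun1 drop on the less bright probe (squares) alone.

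Markers of other cells moved in the same germ arrays. In knockout germ cells the 5 tested Leydig cell markers were all higher (median 1.34), as were all 6 macrophage markers (median 1.42), 10 of 11 Sertoli cell markers (median 0.51) and all 5 myoid markers (median 0.80), none passing the test. The log2 of the summed macrophage signal was -0.41 to 0.80 in knockout and -1.17 to -0.58 in control germ arrays, that of Leydig markers 2.79 to 3.67 and 1.27 to 2.63, and that of Sertoli markers 6.51 to 6.98 and 6.07 to 6.34. Spermatocyte markers outside the list summed to 7.94 to 8.31 in knockouts and 8.09 to 8.41 in controls, with 7 of 9 lower and a median of -0.16. Round spermatid markers had a median of -0.28 (8 of 9 lower) and elongating spermatid markers -0.34 (8 of 9 lower). Of all genes 45.5% were higher in this comparison. The part of such cells in the median of -0.20 over the meiotic genes was not tested.

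In the Sertoli fraction 0 of the 34 genes passed between knockout and control mice, and 0.0% of all genes did. The median was 0.04, against -0.10 over all genes. Of the 34, 19 were higher and 15 lower, where 34.8% of all genes were higher, and no gene had an unadjusted p under 0.05. In 1 gene, Syce2, the knockout arrays lay below the controls without overlap (-0.24 ± 0.18), against 4.83% of all genes, and in none above, against 1.85%. The largest values either way were -0.74 ± 0.46 for Syce1 and 0.60 ± 0.74 for Tex11, both near the background. Syce1 lay at -6.14, -6.46 and -5.27 in knockouts and -5.54, -6.09 and -4.01 in controls, and the array of mouse 74 with the raised floor held the highest value. Of the 15 genes well above background on all Sertoli arrays, Msh4 (-0.67 ± 0.35) and Terb1 (-0.61 ± 0.38) had the lowest values after Syce1, and Prdm9 (0.05 ± 0.17) was among the most precisely measured. The other Terb1 probe went the opposite way (0.30 ± 0.54), and the other Msh4 probe, at background on the Sertoli arrays, gave -0.38.

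Elongating spermatid markers in the same arrays summed to -0.66 to -0.38 in knockout and -0.08 to 1.84 in control Sertoli fractions (9 of 9 lower, median -1.12, none called), while spermatocyte markers outside the list summed to 2.33 to 2.43 and 2.54 to 2.70 (7 of 9 lower, median -0.23). In this comparison 34.8% of all genes were higher. Of the 34 meiotic genes 15 were lower, and the median over the 34 of 0.04 turned to -1.41 with normexp background correction (-0.40 over all genes). Whether germ cells left in the Sertoli fraction bear on single genes was not tested.

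The knockout effect was also compared between the fractions (germ effect minus Sertoli effect). None of the 34 genes passed, against 0.00799% of all genes, and none had an unadjusted p under 0.05. The median was -0.25 against 0.09 over all genes, with values from -1.12 (Tex11) to 0.72 (Msh4). Of the 34 genes 26 were negative and 8 positive, where 60.5% of all genes were positive. With normexp background correction the median turned to 1.10, against 0.55 over all genes. Among the 50 other meiotic genes, 0 passed between genotypes in either fraction. In germ cells 39 of them were lower and 11 higher (median -0.18, with 45.5% of all genes higher), and none had an unadjusted p under 0.05. In the Sertoli fraction 31 were lower and 19 higher (median -0.11, with 34.8% of all genes higher). At an unadjusted p under 0.05, Terb2, a telomere attachment gene, was lower in the Sertoli fraction of knockouts (2.38% of all genes were), and Stra8, Rbm46 and Dazl were higher (0.648% of all genes were). These last belong to the list of other meiotic entry genes, of which all 4 tested were higher with a median of 0.85, and all were named after their values were seen. Terb2, Stra8 and Dazl stayed at background on the 3 control Sertoli arrays. In both fractions the 9 general relatives did not pass either, with medians of -0.19 in germ and -0.13 in Sertoli fractions.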

How the data were processed

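The labels' protocols state Trizol extraction and Cy3 labelling, although the label field says biotin. Agilent Feature Extraction (10.7.3.1) quantified the scans, per the file headers. The deposited intensity used was the processed signal, background-subtracted and detrended by the scanner software per the file headers. Uncorrected median and background intensity columns deposited by the authors served the normexp alternative (offset 50). The authors also deposited a log2 table with nearly equal column medians, whose normalization is not stated in the sources used here; the submitters' processing notes name limma. Control spots (1377) and flagged spots were left out, spots of a probe were averaged, and log2 signal minus the array's 75th percentile was taken. Accessions were named through RefSeq GRCm38.p6 (26055 of 39429 probes). The array grid names build mm9, so promoter coordinates come from RefSeq alone and no array coordinate is used.

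Probes entered the test if any group had all of its 3 arrays well above background. limma 3.58.1 (R 4.3.3) was fitted to 4 group means over all 12 arrays, with Benjamini-Hochberg adjustment over 25019 genes, and was tested on simulated data. The bound of a dim gene sets the bright group's mean against, per dim array, the higher of the floor (the dimmest probe flagged as well above background) and the probe's own signal. The members and lists were chosen with earlier results of these data known. All members could be named; other genes were named if called between genotypes, if among the largest fraction differences or not passing there, or as relatives of a member, some of which are not reported here. The list of Sertoli, Leydig, myoid, macrophage, spermatocyte and spermatid markers served to check fractions. Spermatogonia markers (5 of 9 higher and 1 lower in control germ cells, against 36.6% and 39.8% of all genes) were checked too. Both fractions of a mouse are paired by animal; deviations correlated between them with r from -0.16 to 0.46. Knockout and control arrays of a slide deviated together in all 3 pairs of Sertoli arrays (r from 0.26 to 0.33), so slides pair genotypes there. Germ arrays deviated together on slide 3 (r 0.77) and not on slides 1 and 2 (r -0.55 and -0.29), values that depend on each other through the group means. Alternatives changed the background correction, scaling, probe choice, filter, blocks, ages and mice. The number of arrays limits the precision.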

Additional observations from a re-analysis of the deposited data

How the results depend on the processing

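Under every alternative fitted, 0 members were called between genotypes or in the interaction, and the 34 fraction differences kept their sign. Single fraction calls were lost in 11 cases, and over all alternatives values changed sign for 18 of 34 genes between genotypes in germ, 28 in Sertoli fractions and 28 in the interaction. In controls normexp background lost Rec114 (0.46), Prdm9 (0.61), Spata22 (1.34) and Msh4 (1.07), and Trip13 fell to 0.54 without mice 86 and 99, an alternative chosen after seeing the data. With normexp the median over members was -1.41 between genotypes in Sertoli fractions, 4.08 and 4.83 between fractions in controls and knockouts, and 1.10 in the interaction, while the median of all genes moved to -0.40, -0.85, -0.14 and 0.55. Quantile normalization gave 0.21 (Sertoli genotypes) and 5.50 (knockout fractions), the values deposited by the authors gave 0.21, 5.41 and -0.47 (interaction), and the percentile of probes above background on all arrays 6.26 (knockout fractions). The all-gene median of the fraction comparisons ran from -0.44 to 0.33 under these scalings. The median was -0.42 within slide 1 (germ genotypes), -0.18 within slide 3 (Sertoli genotypes), 6.78 and 6.33 within slide 2 (fractions in controls and knockouts), and -0.017 and -0.012 within slides 2 and 3 (interaction), which was -0.57 without the controls titled het. Leaving out 1 mouse gave -0.32 to -0.14 (germ genotypes), -0.15 to 0.24 (Sertoli genotypes) and -0.40 to -0.032 (interaction). With slide as replicate block the paired median was -0.20 in germ, 0.04 in Sertoli genotypes and -0.25 in the interaction, and no call changed. The causes were not tested. With 3 mice a group, the 95% interval between genotypes in germ cells reached past 1 log2 unit for 17 of 34 genes, and signal near the background limits the Sertoli values.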
